A study of Mus musculus with 10 samples.

Results

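The comparison described here asked how the transcriptome of utricular supporting cells in culture changed after TRULI was taken away. TRULI is an inhibitor of Lats1 and Lats2, the terminal kinases of the Hippo pathway. The 5 libraries used, of 10 in the series, were chosen by the names of the deposited tables: 3 tables named TRULI_d5 and 2 named TRULI_d10. By the labels, cultures of the TRULI_d5 kind received 10 µM TRULI with 0.1% DMSO for 5 days, and those of the TRULI_d10 kind received the same and then 5 days of recovery without treatment. The utricles came from mice at P21 that carry Lfng-EGFP, a reporter that marks supporting cells, and GFP-positive cells were sorted from the cultured organs before RNA was extracted. The other 5 libraries, named DMSO_d5 (3) and DMSO_d10 (2), had by these names the vehicle alone at 0.1% over the same days. They serve as the background for culture time, although the labels of both tables named DMSO_d10 give another condition.

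The labels and the names of the deposited tables contradict each other for 4 of the 10 libraries, and for 2 of the 5 used here. Replicates 2 and 3 named TRULI_d5 are labelled as DMSO controls at day 10, while the pair of tables named DMSO_d10 is labelled TRULI_d5. Every change in DMSO given below therefore rests, on its day 10 side, on libraries whose labels give 10 µM TRULI. Replicate 1 named TRULI_d5 and both libraries named TRULI_d10 carry the same condition in label and name. Which of these is right was not settled here, so libraries are called by the names of their tables, and the results are also given for the grouping by label and for the 3 libraries on which label and name agree, which is 2 against 1.

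In the Hippo pathway the kinases Mst1 and Mst2 activate Lats1 and Lats2, which phosphorylate the coactivators Yap and Taz and keep them out of the nucleus. When the Lats kinases are inhibited, Yap enters the nucleus, binds Tead transcription factors and raises genes of growth and division such as Ccn1 and Ccn2. In the mature mammalian utricle, a vestibular organ that senses linear acceleration, supporting cells surround the sensory hair cells and divide very little.

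Each library held between 3565654 and 5404033 estimated counts over 48709 genes, of which 2.09% and 3.52% came from chromosome M in the TRULI_d10 libraries and 14.2% to 25.4% in the TRULI_d5 libraries. By the names of the tables, this difference went with the day in both treatments: the mitochondrial ribosomal transcript mt-Rnr2 alone took 1.45% and 2.51% at TRULI_d10, 13.0% to 23.6% at TRULI_d5, 1.99% and 2.53% at DMSO_d10 and 16.2% to 26.4% at DMSO_d5. The removal of the compound, 5 more days in culture and whatever batch of libraries the days formed cannot be told apart in these 5 libraries. In a principal component analysis of the 1000 most variable genes, component 1 accounted for 61.3% of the variation and placed the TRULI_d5 libraries between -42.0 and -26.8 and the TRULI_d10 libraries at 34.9 and 64.6. The next component accounted for 23.7% and set the pair of TRULI_d10 libraries apart, at 44.1 and -29.4.

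Among 11657 nuclear protein-coding genes tested, 961 were called higher and 742 lower at TRULI_d10 than at TRULI_d5. A gene was called where its log2 fold change was beyond 1 in either direction and its Benjamini-Hochberg adjusted p, from the quasi-likelihood test of edgeR, was below 0.05. The background against which every list below has to be read was therefore 8.24% of genes called higher and 6.37% called lower, and 24.4% of the genes tested had both TRULI_d10 libraries above all TRULI_d5 libraries while 27.1% had both below. Levels are given as CPM, counts scaled to a common library total, after TMM scaling, with chromosome M left out of the totals, and in the order TRULI_d5 replicates 1, 2 and 3 and then TRULI_d10 replicates 1 and 2. With 1 library left out, the counts of higher and lower genes were 18 and 24 without TRULI_d5 replicate 2, 137 and 141 without TRULI_d5 replicate 1, 582 and 287 without TRULI_d5 replicate 3, 1262 and 1226 without TRULI_d10 replicate 1, and 1025 and 703 without TRULI_d10 replicate 2.

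The calls did not hold under the other readings of the labels. Grouped by sample label, edgeR called 0 genes in either direction among 11461, with 351 at an unadjusted p below 0.05. In the 3 libraries on which label and name agree, 18 genes were called higher and 7 lower of 12017 tested, and all 25 were among the calls made with 5 libraries. The single TRULI_d5 library there has no measured spread of its own and is assumed to vary like the TRULI_d10 pair, so a call in those 3 libraries carries little weight, and for single genes only the log2 fold change is given from them.

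**Figure D1:**
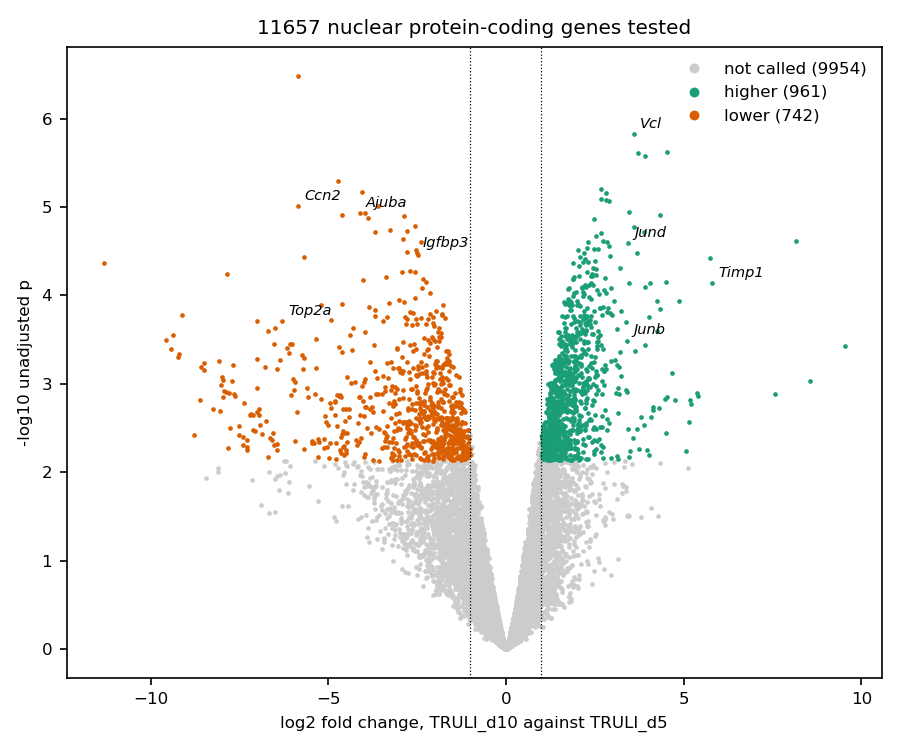
Change of 11657 protein-coding genes between TRULI_d10 and TRULI_d5. Each point is a gene, with the log2 fold change on the horizontal axis and the negative log10 of the unadjusted p on the vertical axis; the 961 genes called higher are green, the 742 called lower are orange, and dotted lines mark a log2 fold change of 1 in each direction. Ccn2 and Ajuba lie far to the left and Vcl and Jund to the right.

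Many genes also changed over the same days in the vehicle. In a single fit of all 10 libraries, 1284 genes were higher (10.8% of 11848) and 944 lower (7.97%) at DMSO_d10 than at DMSO_d5, against 1160 higher (9.79%) and 1002 lower (8.46%) between the TRULI libraries in that fit. In that fit, the 683 genes called higher in both conditions were 58.9% of those called after TRULI withdrawal and 53.2% of those called in DMSO, and the 406 genes called lower in both were 40.5% and 43.0%. Of the genes called higher after withdrawal 2 were called lower in DMSO, and of those called lower 4 were called higher. The test of the difference itself, the day effect in TRULI libraries minus that in DMSO libraries, called 0 genes in either direction by edgeR, with 1122 at an unadjusted p below 0.05, and 37 higher and 39 lower genes by DESeq2. On simulated counts at this size, edgeR recovered 4% of genes with a known 4-fold difference of differences and 38% of genes with a 4-fold difference between TRULI days, so a difference of that size would mostly be missed. This difference uses all 4 libraries whose label and name differ, so it cannot be given for libraries of undisputed condition. Grouped by sample label, edgeR called 0 genes in either direction, with 810 at an unadjusted p below 0.05. The difference from DMSO is given below as a log2 value with its unadjusted p, and none of these passed adjustment.

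A list of 6 direct Yap targets had the lowest median of the 21 gene lists examined, while a broader Yap and Tead signature, given below, had -0.11. These 6 are only a part of the targets that the study displays. Of them, 4 fell, none rose and the median log2 fold change was -3.31, against -0.03 over all genes tested. The median was -3.03 with the target that was at 0 after withdrawal set at its bound. The study chose these targets on the day 5 libraries of this series, so their direction is not independent evidence. Ccn2, a secreted matricellular protein widely used as a readout of Yap, stood at 834, 578 and 580 CPM in the presence of TRULI and at 18.3 and 4.36 CPM after its withdrawal. Every library without the compound was thus far below every library with it, and the log2 fold change was -5.85 ± 0.64 (SE; adjusted p = 0.00724, edgeR).

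Ajuba, a LIM-domain protein that binds and restrains Lats kinases, went from 167, 102 and 88.0 CPM to 8.13 and 5.57 CPM, a log2 fold change of -4.11 ± 0.46 (adjusted p = 0.00724, edgeR). In the 3 libraries of undisputed condition the log2 fold changes were -6.21 for Ccn2 and -4.62 for Ajuba. Scaled with all 10 libraries, Ccn2 was at 17.9, 10.3 and 13.6 CPM in the DMSO_d5 libraries and at 2.35 and 7.59 CPM in the DMSO_d10 libraries. Over these days in DMSO, Ccn2 changed by -1.62 (adjusted p = 0.0803) and Ajuba by -0.39 (adjusted p = 0.529) on the log2 scale. The changes under TRULI exceeded those in DMSO by -4.26 for Ccn2 (unadjusted p = 0.000175, adjusted p = 0.179) and by -3.74 for Ajuba (unadjusted p = 2.25e-05, adjusted p = 0.0889).

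Ccn1, the sister protein of Ccn2, behaved differently against the vehicle. It was at 497, 607 and 757 CPM with TRULI and at 165 and 51.6 CPM after withdrawal, a log2 fold change of -2.52 ± 0.50 (adjusted p = 0.0191, edgeR), and in DMSO it changed by -1.98 (adjusted p = 0.0117). The difference between these changes was -0.55 (unadjusted p = 0.369). Birc5, which encodes the mitotic inhibitor of apoptosis survivin, was at 2.46, 10.0 and 11.3 CPM with TRULI and had no count in either TRULI_d10 library, which makes it at least 11.7-fold lower against a floor of 3 counts per library (adjusted p = 0.0221, edgeR). The groups did not overlap for either gene.

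The remaining targets of this list did not pass. Amotl2, an angiomotin that holds Yap at junctions and is itself a Yap target, was at 90.9, 55.3 and 65.0 CPM with TRULI and at 67.1 and 7.02 CPM after it (log2 fold change -0.92 ± 0.74, adjusted p = 0.41, edgeR). The TRULI_d10 libraries differed from each other here more than the groups did. Myc, a transcription factor of growth, was level at 31.7, 30.6 and 31.3 CPM against 39.8 and 22.8 CPM (log2 fold change 0.00 ± 0.39, adjusted p = 0.996, edgeR).

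The stretch before the start site of 3 of the 4 targets that fell is shown because Tead factors are known to act through the core GGAATG. RefSeq promoters of build GRCm38.p6 were read from 250 bases before the start site up to it, and Ccn2 had no entry. Capitals mark GGAATG or its reverse complement CATTCC.
Ccn1 (chr3:145649986-145650235, minus strand): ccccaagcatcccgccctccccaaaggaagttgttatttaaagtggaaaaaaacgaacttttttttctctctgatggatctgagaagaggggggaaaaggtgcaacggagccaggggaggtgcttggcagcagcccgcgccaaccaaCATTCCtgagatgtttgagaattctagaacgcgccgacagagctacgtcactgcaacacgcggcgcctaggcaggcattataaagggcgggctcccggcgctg
Ajuba (chr14:54577662-54577911, minus strand): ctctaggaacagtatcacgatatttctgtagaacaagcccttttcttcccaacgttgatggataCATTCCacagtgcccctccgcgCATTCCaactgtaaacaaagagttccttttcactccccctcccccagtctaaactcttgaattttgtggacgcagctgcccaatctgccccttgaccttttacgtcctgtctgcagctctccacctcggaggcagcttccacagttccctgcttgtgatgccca
Birc5 (chr11:117848987-117849236, plus strand): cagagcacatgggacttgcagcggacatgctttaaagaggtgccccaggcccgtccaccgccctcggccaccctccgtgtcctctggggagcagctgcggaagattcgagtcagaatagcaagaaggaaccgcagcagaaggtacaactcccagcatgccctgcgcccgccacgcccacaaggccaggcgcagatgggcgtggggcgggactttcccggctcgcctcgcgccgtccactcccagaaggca

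The Ajuba stretch held the core 2 times, beginning 186 and 164 bases before the start site, and the Ccn1 stretch held it 1 time, 103 bases before. The Birc5 stretch held none. Of the 4 listed targets with a promoter in the table, 3 held the core, among them Amotl2, which did not pass the test. Of the 32851 promoters in the table, 12.6% held the core at least once in a window of the same length. These matches are letters in a window, and no binding was measured.

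A broader signature of Yap and Tead activity did not move as a whole. Of its 22 genes, 18 were tested, 4 fell, 1 rose and the median log2 fold change was -0.11. Beside Ccn1 and Ccn2, the decreases were those of Igfbp3, a secreted carrier of insulin-like growth factors that went from 1351, 1969 and 1620 CPM to 333 and 246 CPM (log2 fold change -2.51 ± 0.32, adjusted p = 0.00823, edgeR), and of F3, the tissue factor that starts coagulation (log2 fold change -1.38 ± 0.35, adjusted p = 0.0354, edgeR). In DMSO Igfbp3 changed by -1.32 (adjusted p = 0.00623), and the further change under TRULI was -1.20 (unadjusted p = 0.00466). Gadd45b, a stress-inducible gene of growth arrest, rose by 1.83 ± 0.37 (adjusted p = 0.0194, edgeR) and changed by 2.18 in DMSO. Ankrd1, a cardiac ankyrin repeat protein and classical Yap target, was too low to test, with 1.54, 3.53 and 0.54 CPM against no count in both TRULI_d10 libraries.

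Components of the Hippo pathway itself moved in both directions. Of 34 tested, 5 rose, 2 fell and the median log2 fold change was 0.41. Lats1, the kinase that TRULI inhibits together with Lats2, was at 90.6, 94.97 and 79.1 CPM with the compound and at 350 and 172 CPM after it (log2 fold change 1.56 ± 0.34, adjusted p = 0.0244, edgeR), and changed by 0.48 (adjusted p = 0.279) in DMSO. Wwtr1, which encodes Taz, rose from 138, 94.1 and 120 CPM to 295 and 399 CPM (1.56 ± 0.29, adjusted p = 0.0176, edgeR), with a change of 1.53 in DMSO. The upstream kinases Taok3 (1.56) and Map4k5 (1.24) and the Lats cofactor Mob1b (1.20) rose as well, and changed by 1.10, 1.11 and 1.10 in DMSO. The members that fell were Ajuba, given above, and Sav1, the scaffold of the Mst kinases. Sav1 went from 41.3, 32.9 and 43.2 CPM to 13.5 and 4.12 CPM (-2.14 ± 0.56, adjusted p = 0.0388, edgeR). It changed by -1.66 in DMSO (adjusted p = 0.0524, edgeR), and the difference was -0.49 (unadjusted p = 0.526, edgeR).

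**Figure D2:**
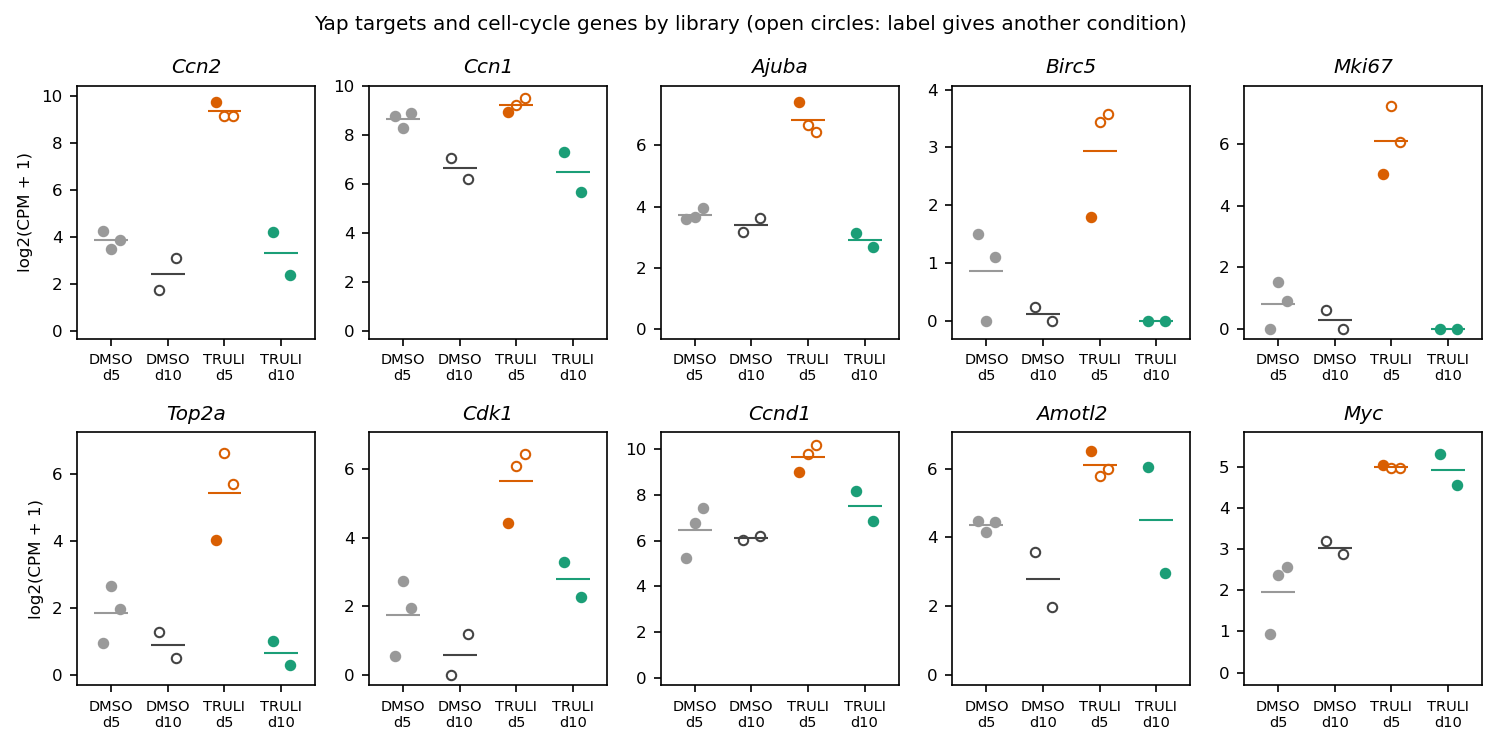
Levels of Yap targets and cell-cycle genes in all 10 libraries, as log2(CPM + 1). Each circle is a library and each bar the mean of its group, with conditions taken from the names of the deposited tables; open circles are the 4 libraries whose label gives another condition. Ccn2, Ajuba, Mki67 and Top2a stand high in the 3 TRULI_d5 libraries alone, Ccn1 is lower on day 10 in both conditions, and the Myc levels of the TRULI days overlap.

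Genes of cell division held more decreases than any other list. Of 54 genes of the G2 and M phases, all tested, 30 fell and 1 rose, against 6.37% and 8.24% over all genes, and the median log2 fold change was -3.22, or -2.76 with the 11 genes at 0 in both TRULI_d10 libraries set at their bounds. In DMSO 2 of them were called lower and 4 higher over the same days, with a median of -0.76. Some were already close to the floor of 3 counts at DMSO_d5 and had little room to fall there. Scaled with all 10 libraries, Mki67 was at 0, 1.90 and 0.87 CPM and Cenpf at 0, 0 and 0.58 CPM at DMSO_d5. Tpx2 was higher, at 4.59, 4.18 and 4.04 CPM. In the libraries of undisputed condition the median was -1.67 over the 44 of these genes tested there, and by label it was -0.25 over 33, with none called in either. Mki67, the proliferation antigen Ki-67, was at 31.4, 150 and 67.7 CPM with TRULI and had no count after withdrawal, at least 123-fold lower (adjusted p = 0.0087, edgeR). The 3 TRULI_d5 libraries spanned a wide range, and the library of undisputed condition was the lowest of them, as it was for Birc5, Top2a and Cdk1.

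The genes of the mitotic apparatus followed. Top2a, the topoisomerase that untangles sister chromatids, went from 15.1, 98.2 and 52.1 CPM to 1.04 and 0.242 CPM (-6.31 ± 1.02, adjusted p = 0.0124, edgeR). Tpx2, a spindle assembly factor, went from 33.9, 57.0 and 64.8 CPM to 1.67 and 0.242 CPM (-5.67 ± 0.73, adjusted p = 0.00846, edgeR), while DMSO changed it by -0.30 (adjusted p = 0.753); the further change under TRULI was -5.38 (unadjusted p = 4.34e-05, adjusted p = 0.103). For both, no TRULI_d10 library came near any TRULI_d5 library. Cdk1, the kinase that drives entry into mitosis, was at 20.3, 68.5 and 89.3 CPM against 9.17 and 3.87 CPM (-3.17 ± 0.71, adjusted p = 0.0259, edgeR). In DMSO Cdk1 changed by -2.73 (adjusted p = 0.141, edgeR), and the further change under TRULI was -0.45 (unadjusted p = 0.837, edgeR).

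Several mitotic genes were without a count in both TRULI_d10 libraries. The chromosomal passenger kinase Aurkb was at least 36.3-fold lower, the kinesin Kif22 at least 32.7-fold, the checkpoint kinase Bub1 at least 31.7-fold, the kinase Melk at least 28.6-fold, the spindle protein Dlgap5 at least 27.9-fold and the kinetochore protein Cenpf at least 26.6-fold lower, each by the same floor. Their TRULI_d5 levels were between 4.31 and 39.1 CPM, with replicate 1 the lowest for all 6. All but Kif22 had no count in the DMSO_d10 libraries either, so their difference from DMSO could not be estimated. At DMSO_d5, Aurkb was at 20.7, 1.52 and 0 CPM, and Bub1, Melk, Dlgap5 and Cenpf at 1.16 CPM or less. Kif22 changed by -0.71 in DMSO (adjusted p = 0.703, edgeR), and its difference was -8.57 (unadjusted p = 0.00353, edgeR). The member of the list that rose was Ctcf, a chromatin architectural protein expressed outside mitosis too, at 75.8, 86.4 and 118 CPM against 189 and 238 CPM (1.19 ± 0.30, adjusted p = 0.036, edgeR).

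Genes of the S phase, which copy DNA, fell less widely. Of 42 tested, 13 fell and none rose, with a median of -1.96 against -0.81 in DMSO, where 2 were called higher. Rrm1, a subunit of the ribonucleotide reductase that makes deoxynucleotides, went from 33.3, 86.4 and 41.0 CPM to 2.92 and 0.484 CPM (-4.92 ± 0.79, adjusted p = 0.0122, edgeR). Mcm6, part of the replicative helicase, went from 38.2, 133 and 52.1 CPM to 8.96 and 2.90 CPM (-3.63 ± 0.73, adjusted p = 0.0195, edgeR). The helicase subunits Mcm2, Mcm4 and Mcm5 fell by 4.05, 2.06 and 5.01 on the log2 scale. The repair genes Exo1 and Rad51ap1, without a count after withdrawal, were at least 12.0-fold and 12.3-fold lower (adjusted p = 0.0191 and 0.0208, edgeR). Both were without a count in the DMSO_d10 libraries too.

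Regulators of G1, the phase in which a cell commits to division, included both accelerators and brakes among the decreases. Of 25 tested, 7 fell and none rose, with a median of -0.70. Ccnd1, the cyclin that opens G1, went from 501, 898 and 1187 CPM to 295 and 118 CPM (-2.06 ± 0.50, adjusted p = 0.0321, edgeR). Ccne1, the cyclin of the G1 to S transition, fell by 3.17 ± 0.91 (adjusted p = 0.0497, edgeR), and changed by 0.75 in DMSO. Cdkn1b, the cell-cycle inhibitor p27Kip1, fell too, from 23.1, 22.9 and 17.3 CPM to 3.54 and 1.94 CPM (-2.92 ± 0.57, adjusted p = 0.0185, edgeR), and changed by -3.70 (adjusted p = 0.00432) in DMSO. The inhibitor Cdkn1a, or p21, stood at 110, 76.7 and 86.9 CPM against 55.6 and 93.9 CPM and did not pass (-0.29 ± 0.35, adjusted p = 0.591, edgeR).

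The transcription factors E2f8 and E2f6 were also lower. E2f8, a repressor that peaks with DNA synthesis, had no count after withdrawal and was at least 14.5-fold lower (adjusted p = 0.0265, edgeR), and E2f6 fell by 1.76 ± 0.44 (adjusted p = 0.0342, edgeR). E2f8 had no count in any DMSO library. E2f6 changed by -1.40 in DMSO (adjusted p = 0.101, edgeR), and the difference was -0.38 (unadjusted p = 0.629, edgeR). Of 31 genes of Myc and of ribosome biogenesis tested, 2 fell and 3 rose, with a median of -0.19. Mycn, a Myc family member of progenitors, went from 6.78, 14.4 and 16.5 CPM to 0.417 and 0.484 CPM (-4.71 ± 0.84, adjusted p = 0.0151, edgeR), whereas the nucleolar genes Fbl and Ddx21 and the Myc partner Max rose by 1.41, 1.15 and 1.10, close to their DMSO changes of 1.48, 1.14 and 1.15.

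**Figure D3:**
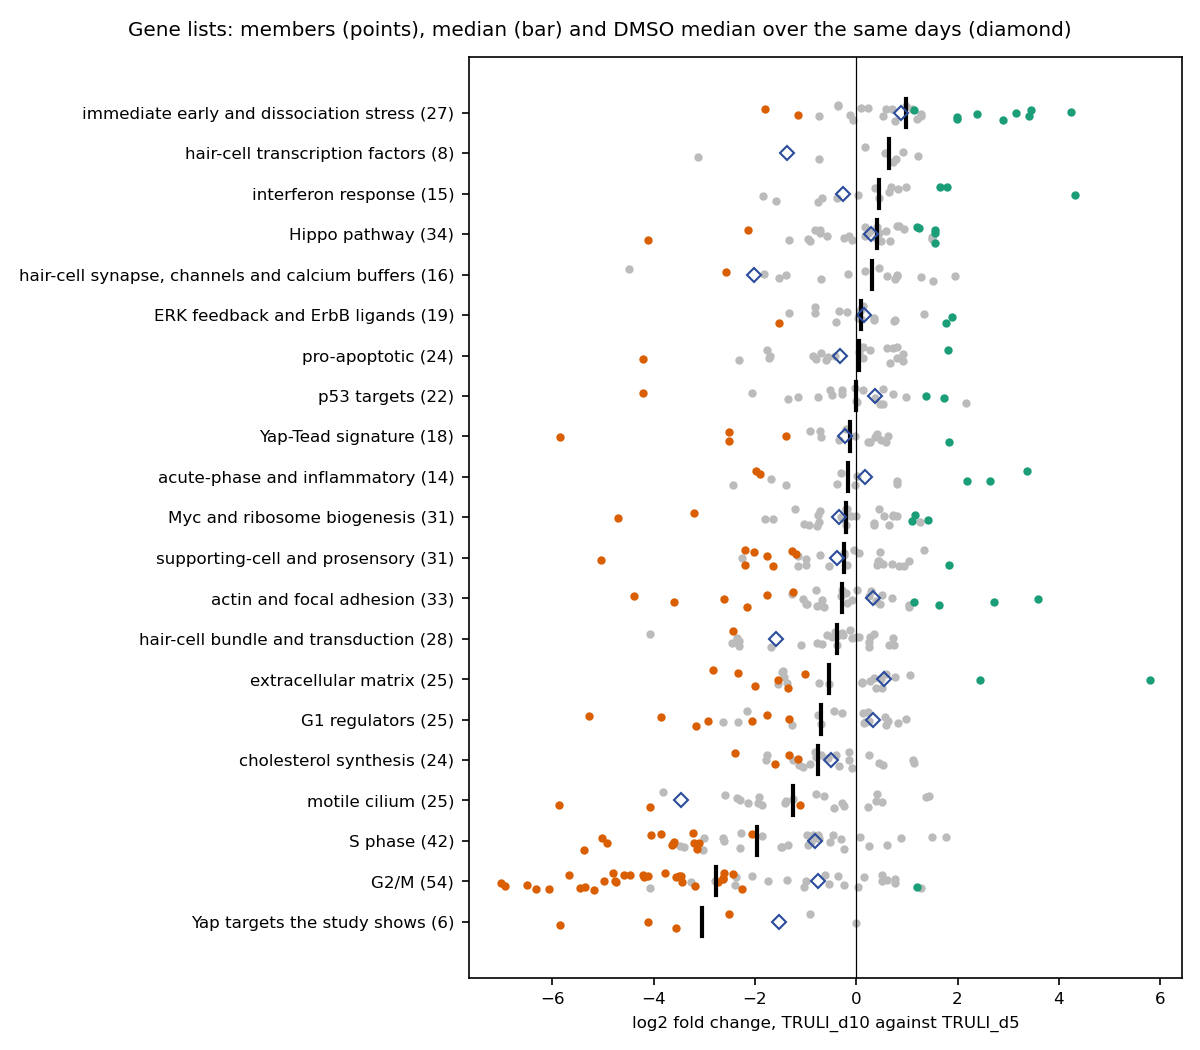
Log2 fold changes of 21 gene lists between TRULI_d10 and TRULI_d5. Each point is a gene (green called higher, orange called lower, grey not called), the number of genes tested is in brackets, genes with no count in one group are drawn at their bound, bars are list medians and open diamonds the medians over the same days in DMSO. The bars of the listed Yap targets (-3.03), G2/M (-2.76) and S phase (-1.96) lie to the left of their diamonds (-1.52, -0.76 and -0.81).

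None of the hair-cell genes in the lists was called higher after withdrawal. Myo5a, a myosin that hair cells express too and that is in none of the lists, was called higher on 1 library and is described with the largest increases. None of the 8 hair-cell transcription factors tested was called in either direction, and their median log2 fold change was 0.64, against -1.36 over the same days in DMSO, where 2 were called lower. Atoh1, which starts hair-cell differentiation, was at 15.7, 17.6 and 4.86 CPM with TRULI and at 30.6 and 11.1 CPM after it (0.72 ± 0.66, adjusted p = 0.474, edgeR). Pou4f3, required for hair cells to survive, was at 176, 114 and 35.6 CPM against 208 and 37.5 CPM (0.18 ± 0.75, adjusted p = 0.886, edgeR). For both, the ranges of the groups overlapped and the spread inside a group exceeded the difference between groups.

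The same spread ran through the other hair-cell genes. Lhx3 was at 20.9, 9.12 and 3.24 CPM against 46.9 and 4.36 CPM (1.21 ± 0.96, adjusted p = 0.401, edgeR), and Gfi1, a repressor of neuronal genes in hair cells, at 116, 62.9 and 16.5 CPM against 13.3 and 1.45 CPM (-3.12 ± 1.0, adjusted p = 0.0689, edgeR). The synaptic calcium sensor Otof was at 264, 204 and 59.4 CPM against 534 and 61.7 CPM (0.76 ± 0.81, adjusted p = 0.539, edgeR). The transduction channel gene Tmc1 was at 43.5, 40.3 and 38.6 CPM against 112 and 25.4 CPM (0.75 ± 0.54, adjusted p = 0.357, edgeR). TRULI_d10 replicate 1 was above replicate 2 for each of these, and TRULI_d5 replicate 1 was above replicate 3. The summed level of 12 hair-cell markers was 1000, 647 and 241 CPM at TRULI_d5 and 1159 and 186 CPM at TRULI_d10, so libraries of the same condition differed several-fold in it, and in bulk libraries more hair cells and more RNA per cell cannot be told apart.

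Tomt, which is needed to bring the transduction channel to the bundle, was at 16.0, 9.70 and 2.16 CPM against 28.8 CPM and no count, and Myo7a, the unconventional myosin of the hair bundle, was at 57.9, 45.0 and 17.0 CPM against 23.5 and 1.21 CPM; neither passed (adjusted p = 0.768 and 0.254, edgeR). Calb1, a calcium buffer, had 0.308 CPM in TRULI_d5 replicate 1 and no count in the other libraries. Of 28 genes of the bundle and of transduction tested, 1 fell and none rose: Tmie, a subunit of the transduction complex, at 20.6, 14.7 and 12.2 CPM against 2.92 and 2.90 CPM (-2.43 ± 0.59, adjusted p = 0.0314, edgeR). Of 16 genes of the synapse, channels and calcium buffers, 1 fell and none rose. That gene was S100a1, a calcium-binding protein that supporting cells express too, at 10930, 11720 and 14940 CPM against 2026 and 2189 CPM (-2.57 ± 0.30, adjusted p = 0.00788, edgeR), with -2.39 in the undisputed libraries.

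Set beside DMSO, the medians of the hair-cell lists were higher under TRULI, and single genes lay on both sides. In DMSO 10 of the bundle genes and 4 of the synaptic group were called lower over the same days, with medians of -1.58 and -2.02, against -0.38 and 0.31 here. The difference from DMSO was 2.63 for Atoh1 (unadjusted p = 0.0435), 2.63 for Pou4f3 (unadjusted p = 0.0193) and 3.82 for Otof (unadjusted p = 0.00666). It was 1.83 for Myo7a (unadjusted p = 0.21), 1.5 for Gfi1 (unadjusted p = 0.29), 0.95 for Lhx3 (unadjusted p = 0.515) and 0.75 for Tmc1 (unadjusted p = 0.366), and -0.30 for Tmie (unadjusted p = 0.729) and -1.02 for S100a1 (unadjusted p = 0.0176). At an unadjusted p below 0.05, 2 of 8 transcription factors, 3 of 28 bundle genes and 6 of 15 synaptic genes were on the higher side, and 0, 1 and 1 on the lower, against 588 and 534 of 11848 genes. After adjustment over all genes none passed. Motile cilium genes, of which 25 were tested, had a median of -1.24, with 3 called lower (Dnah6, Foxj1 and Dnaic1) and none higher, against 8 called lower and a median of -3.46 in DMSO.

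**Figure D4:**
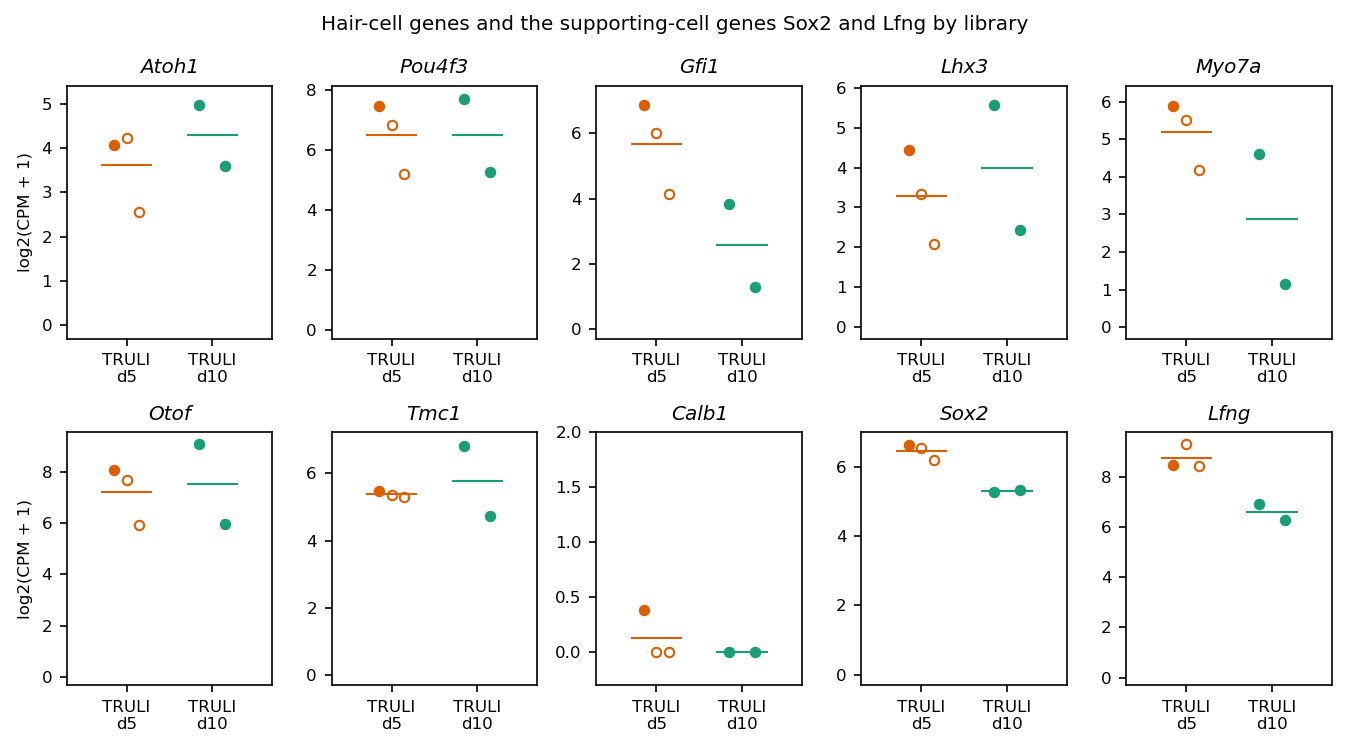
Levels of 8 hair-cell genes and of the supporting-cell genes Sox2 and Lfng in the 5 TRULI libraries, as log2(CPM + 1). Circles are libraries, open where the label gives another condition, and bars are group means. Sox2 and Lfng are lower in both TRULI_d10 libraries, Gfi1 is lower there without passing the test, Calb1 is near 0, and the other hair-cell genes overlap between the groups.

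Supporting-cell and prosensory genes were expressed in all 5 libraries, which is what the sort selected for. The 12 supporting-cell markers summed to 5336, 8996 and 9812 CPM at TRULI_d5 and to 6708 and 7888 CPM at TRULI_d10. Of 31 genes of the broader supporting-cell and prosensory list tested, 8 fell and 1 rose, with a median of -0.24. Sox2, the transcription factor of the prosensory domain, went from 97.4, 91.4 and 72.9 CPM to 37.7 and 39.2 CPM (-1.18 ± 0.31, adjusted p = 0.0406, edgeR), and Lfng, a Notch modifier and the gene whose reporter was used in the sort, from 364, 648 and 349 CPM to 120 and 78.7 CPM (-2.19 ± 0.39, adjusted p = 0.0155, edgeR). Sox2 changed by -0.77 in DMSO (adjusted p = 0.11, edgeR). Lfng changed by -3.61 (adjusted p = 0.00119) in DMSO, and the difference between its changes was 1.40 (unadjusted p = 0.0305).

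The other decreases covered structural and Notch genes. The glutamate transporter Slc1a3 went from 1799, 4247 and 4621 CPM to 641 and 918 CPM (-2.19 ± 0.45, adjusted p = 0.0205, edgeR), and the keratin Krt8 from 801, 898 and 943 CPM to 269 and 251 CPM (-1.76 ± 0.27, adjusted p = 0.0114, edgeR). The Notch ligand Dll1 fell by 2.02 and the Notch effectors Hes5 and Hey2 by 5.03 and 1.26, and Tecta, a component of the extracellular membrane above the epithelium, by 1.64. Notch3, a Notch receptor, rose from 50.8, 46.2 and 109 CPM to 174 and 317 CPM (1.83 ± 0.44, adjusted p = 0.0311, edgeR). Over the same days in DMSO, Dll1, Tecta and Notch3 changed by -2.12, -1.90 and 2.52. Slc1a3, Krt8 and Hey2 changed there by -1.17, -1.27 and -0.80 (adjusted p = 0.045, 0.0115 and 0.0648, edgeR).

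Genes of the actin skeleton and of focal adhesions split. Of 33 tested, 6 fell, 4 rose and the median was -0.28. Vcl, vinculin, which links integrins to actin, rose from 28.0, 46.8 and 38.9 CPM to 476 and 438 CPM (3.59 ± 0.31, adjusted p = 0.00613, edgeR) and had a log2 fold change of 4.01 in the undisputed libraries. The integrin subunit Itgb4, an anchor of hemidesmosomes, fell from 90.0, 73.8 and 73.7 CPM to 7.50 and 5.57 CPM (-3.59 ± 0.39, adjusted p = 0.00724, edgeR), and the actin crosslinker Actn4 from 1251, 1311 and 1348 CPM to 300 and 124 CPM (-2.62 ± 0.41, adjusted p = 0.0121, edgeR). All TRULI_d10 values lay outside the range of TRULI_d5 for these genes.

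The integrin subunits Itgb5 and Itgav rose by 2.71 and 1.64, and the filamin Flna fell by 1.75. Myl9, a myosin light chain, moved in opposite directions under TRULI and in DMSO. Under TRULI it went from 16.0, 56.5 and 54.0 CPM to 2.71 and 1.21 CPM (-4.39 ± 0.75, adjusted p = 0.0139, edgeR). In DMSO it rose by 2.53 (adjusted p = 0.0272, edgeR), from low levels of 1.84, 0.76 and 2.60 CPM to 14.8 and 5.48 CPM when scaled with all 10 libraries. The difference was -6.93 (unadjusted p = 1.74e-05, adjusted p = 0.0889, edgeR). For Itgb4 the difference was -2.68 (unadjusted p = 0.000318, adjusted p = 0.179), and for Vcl, which changed by 2.23 in DMSO, it was 1.35 (unadjusted p = 0.0757). Actn4 and Itgb5 changed by -2.40 and 2.43 in DMSO (adjusted p = 0.0066 and 0.00286, edgeR). Their differences from DMSO were -0.24 and 0.28 (unadjusted p = 0.706 and 0.63, edgeR).

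In the extracellular matrix, 6 of 25 genes tested fell and 2 rose, with a median of -0.55. The laminin subunits Lamb1 and Lamb3 of the basement membrane fell by 2.84 and 2.34, and the protease inhibitor Timp2 by 2.01. Its relative Timp1 rose from 0.616, 0.294 and 0.27 CPM to 35.8 and 10.7 CPM (5.79 ± 0.82, adjusted p = 0.00997, edgeR), and the collagen gene Col6a1 from 14.5, 12.6 and 15.9 CPM to 67.3 and 88.6 CPM (2.44 ± 0.35, adjusted p = 0.01, edgeR). Col6a1 had the same change in DMSO, 2.49, and Timp1 one of 2.05 (adjusted p = 0.0725).

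Immediate early and stress genes were the list with the largest share of increases. Of 27 tested, 9 rose and 2 fell, with a median of 0.98, and in DMSO 12 rose and 2 fell with a median of 0.89. The AP-1 subunit Jund went from 39.4, 54.4 and 109 CPM to 702 and 769 CPM (3.44 ± 0.43, adjusted p = 0.00813, edgeR), and its relative Junb from 109, 184 and 542 CPM to 2841 and 3081 CPM (3.41 ± 0.59, adjusted p = 0.0144, edgeR). Over the same days DMSO changed Jund by 4.44 and Junb by 3.25.

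Ier2 rose by 2.90 ± 0.36 (adjusted p = 0.00823, edgeR) and exceeded its DMSO change by 1.49 (unadjusted p = 0.00857). Egr2, an early growth response factor, rose from 72.1, 67.6 and 146 CPM to 556 and 441 CPM (2.39 ± 0.38, adjusted p = 0.0121, edgeR). Its change in DMSO was 1.72 (adjusted p = 0.0175, edgeR). Hspa8, a constitutive chaperone, fell from 955, 1087 and 1020 CPM to 337 and 247 CPM (-1.80 ± 0.29, adjusted p = 0.0121, edgeR), with a DMSO change of -2.10. Genes of this kind are known to respond to tissue dissociation and sorting, and the part of these steps was not tested.

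Few inflammatory and interferon genes could be tested, against a background of 8.24% of genes called higher and 6.37% called lower. Of 14 acute-phase and inflammatory genes tested, 3 rose and 2 fell, with a median of -0.16. Lcn2, an iron-sequestering acute-phase protein, rose from 175, 95.3 and 101 CPM to 650 and 478 CPM (2.19 ± 0.34, adjusted p = 0.012, edgeR), less than its DMSO change of 3.74 by 1.57 on the log2 scale (log2 difference -1.57, unadjusted p = 0.00575). Serpina3n, a secreted protease inhibitor, rose from 0.616, 2.35 and 1.35 CPM to 12.5 and 17.9 CPM (3.37 ± 0.71, adjusted p = 0.022, edgeR), with a DMSO value of -1.01 (adjusted p = 0.294) and a difference of 4.37 (unadjusted p = 0.000689). Nfkbia, the feedback inhibitor of NF-kB, rose by 2.64 ± 0.41 (adjusted p = 0.0118, edgeR) and by 2.63 in DMSO, while the chemokine Cxcl12 fell by 1.90 ± 0.50 (adjusted p = 0.0391, edgeR).

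Of 15 interferon response genes tested, 3 rose and none fell, with a median of 0.45. Irf9, part of the interferon-activated transcription complex, rose by 1.80 ± 0.28 (adjusted p = 0.0119, edgeR), close to its DMSO change of 1.77, and Ifi27 by 1.66 ± 0.38 (adjusted p = 0.0272, edgeR). Oasl2 passed the test (adjusted p = 0.0262, edgeR) with 4.93, 5.59 and 2.16 CPM against 9.59 and 159 CPM, so its log2 fold change of 4.32 rested on TRULI_d10 replicate 2.

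Genes of cell death and of p53 were near balance. Of 24 pro-apoptotic genes tested, 1 rose and 1 fell, with a median of 0.06. Bcl2l11, the BH3-only protein Bim, rose from 20.0, 39.1 and 28.3 CPM to 104 and 100.2 CPM (1.81 ± 0.36, adjusted p = 0.0187, edgeR), and Pmaip1, the BH3-only protein Noxa, was lower, at 5.86, 7.94 and 5.94 CPM against 0.625 CPM and no count (-4.20 ± 1.12, adjusted p = 0.0406, edgeR). Bcl2l11 and Pmaip1 changed by 1.19 and -4.24 in DMSO (adjusted p = 0.0208 and 0.208, edgeR). Among 22 p53 targets, which include Pmaip1, 2 rose and 1 fell, with a median of 0.00. The risers were Plk3 (1.72 ± 0.38) and the antiproliferative gene Btg2 (1.37 ± 0.32), at adjusted p values of 0.0248 and 0.0299 by edgeR. Plk3 and Btg2 changed by 0.83 and 0.36 in DMSO (adjusted p = 0.135 and 0.522, edgeR).

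Cholesterol synthesis genes fell or did not pass. Of 24 tested, 4 fell and none rose, with a median of -0.75 against -0.50 in DMSO, where 4 fell and 2 rose. Insig1, the sterol-regulated brake on this pathway, went from 270, 231 and 257 CPM to 43.8 and 51.8 CPM (-2.40 ± 0.30, adjusted p = 0.00807, edgeR). Its change in DMSO was -1.25 (adjusted p = 0.018, edgeR). Fdft1, the squalene synthase, fell from 150, 152 and 160 CPM to 68.1 and 71.2 CPM (-1.14 ± 0.28, adjusted p = 0.0316, edgeR). Among 19 genes of ERK feedback and ErbB signalling, 2 rose and 1 fell, with a median of 0.10: the receptor Erbb3 rose by 1.88 ± 0.37, the ligand Hbegf by 1.76 ± 0.36, and the ERK feedback inhibitor Spry4 fell by 1.51 ± 0.41 (adjusted p = 0.0189, 0.0208 and 0.0421, edgeR). Erbb3, Hbegf and Spry4 changed by 1.74, 2.34 and -1.19 in DMSO (adjusted p = 0.00646, 0.00214 and 0.0922, edgeR).

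Outside the lists, the largest increases among genes of at least 10 CPM in the higher group included genes near absence before withdrawal. Tesc, a calcium-binding regulator of the sodium-proton exchanger, had no count at TRULI_d5 and 40.8 and 7.26 CPM at TRULI_d10, at least 27.6-fold higher (adjusted p = 0.0149, edgeR). The secreted neuropeptide precursor Vgf was at least 13.9-fold higher (adjusted p = 0.0199, edgeR), and the potassium channel gene Kcnc4 rose from 0.616, 0.588 and 2.43 CPM to 32.1 and 103 CPM (5.73 ± 0.74, adjusted p = 0.0085, edgeR). Inka1 and Crip3 rose by 5.17 and 5.16, with Crip3 at 60.2 CPM in TRULI_d10 replicate 1 and 4.60 CPM in replicate 2. Myo5a, an unconventional myosin of vesicle transport, rested on 1 library, with 1302 CPM in TRULI_d10 replicate 1 and 38.2 CPM in replicate 2 against 7.83 to 23.8 CPM at TRULI_d5 (5.38 ± 1.15, adjusted p = 0.0225, edgeR). Over the same days in DMSO, Tesc, Vgf and Kcnc4 rose too, by 4.2, 5.06 and 3.31 (adjusted p = 0.00978, 0.0173 and 0.00385, edgeR). The further changes under TRULI were 5.2, 3.35 and 2.41 (unadjusted p = 0.0129, 0.14 and 0.0181, edgeR). Inka1, Crip3 and Myo5a changed by 1.8, -1.6 and 0.49 in DMSO (adjusted p = 0.259, 0.496 and 0.741, edgeR).

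Myod1, the muscle determination factor, was at 0.308 CPM in TRULI_d5 replicate 1, without a count in the other TRULI_d5 libraries and at 17.3 and 57.4 CPM at TRULI_d10 (8.17 ± 1.0, adjusted p = 0.00807, edgeR). In DMSO it changed by 8.83 (adjusted p = 0.000905). Of the other 11 muscle markers, 10 were at 1.35 CPM or less in all 5 libraries, among them Myog, Myf5, Myf6, Des, Tnnt3 and Mymk without a count; the exception was Myot, at 18.8, 12.3 and 1.35 CPM against 88.8 CPM and no count. The largest decreases were the mitotic genes above and Fgf3, a growth factor of otic development, at 0.616, 20.9 and 21.1 CPM against no count (at least 21-fold lower, adjusted p = 0.0368, edgeR), where replicate 1 at TRULI_d5 was at the level of the floor.

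Markers of other cell types were low, with exceptions that moved with the groups. The 12 macrophage markers summed to between 12.3 and 21.5 CPM at TRULI_d5 and to 54.0 and 53.7 CPM at TRULI_d10, with Ptprc, Adgre1, Cx3cr1, C1qa, C1qb and C1qc at 0 throughout; Cd14, a receptor for bacterial lipopolysaccharide, was the member that rose (2.70 ± 0.66, adjusted p = 0.0334, edgeR). The 8 Schwann cell markers summed to 110 to 192 CPM and to 702 and 514 CPM, of which Egr2 and the myelin gene Mbp made up nearly all, while Mag and Prx stayed at 1.47 CPM or less. Mesenchymal markers summed to 50.5 to 141 CPM and to 153 and 43.3 CPM, endothelial markers to 3.75 CPM at most, melanocyte markers to 44.7 to 67.5 CPM and to 57.1 and 21.3 CPM, and markers of vestibular dark and roof cells to 250 to 425 CPM and to 531 and 414 CPM. The part of other cells in the inflammatory and early response genes was not tested.

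The 25 genes called in the libraries of undisputed condition included Ccn2, Lars2, Ajuba, Skp1a, Sparcl1, Mest and S100a1 among the decreases, and Tsc22d1, Arpc5, Gsn, Tspan8, Bud31, Itm2c, Fosb, Anxa2, Slc25a5, Prom2, Fut2, Vcl, Prss22, Jund, Tnfrsf8, Ctsh and Junb among the increases; those outside the fixed lists are named here after their values were seen. Over the same days in DMSO, all of those named here except Ccn2, Ajuba, Mest and Tspan8 were called in the same direction. Lars2, a mitochondrial leucyl-tRNA synthetase, went from 8203, 8540 and 4791 CPM to 130 and 121 CPM, and changed by -6.8 in DMSO (adjusted p = 4.18e-05, edgeR). Part of its transcript resembles mt-Rnr2, which moved in the same direction, so its count is uncertain. Mest, an imprinted gene of the hydrolase fold, went from 1957, 2348 and 3359 CPM to 305 and 387 CPM, while in DMSO its log2 change was -0.13; the difference was -2.76 (unadjusted p = 2.09e-05). The actin-severing gene Gsn went from 1462, 1938 and 2987 CPM to 8019 and 12400 CPM, and changed by 1.72 in DMSO (adjusted p = 0.00452, edgeR).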

How the data were processed

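RNA from sorted GFP-positive supporting cells was sequenced by the authors. The labels give polyA enrichment and a TruSeq kit, while the study's methods name a QIAseq FX single-cell kit; this was left unsettled. Per the labels and methods, reads were aligned to GRCm38/mm10 with STAR; the program that estimated the counts is not given in the sources used here. The authors deposited expected counts per gene for each library, together with gene length and effective length, which were not used. Expected counts were rounded to whole numbers. Of 48709 genes, 48349 matched GENCODE M21 by identifier, and 21682 were nuclear and protein-coding. Gene names were taken from that annotation.

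Genes passing filterByExpr were tested with edgeR 4.0.16 (R 4.3.3; TMM, quasi-likelihood, Benjamini-Hochberg) with nuclear totals. SEs are the log2 fold change divided by the root of F. The members, gene lists and tests were chosen with earlier results of these data known. Named genes were the 8 largest increases and decreases among called, non-overlapping genes with at least 10 CPM in the higher group, a set of 26 genes always given, and up to 4 called members of each list by p, or 2 where none was called; further members and the genes called in the undisputed libraries were named after their values were seen. At least a set number of folds means against a floor of 3 counts per library, or 0.625 to 0.924 CPM. No pair of the 5 libraries agreed within sampling noise (chi-square per degree of freedom of 12.7 or more). The study's methods call the replicates of a condition biological, but no label ties a library to an animal or culture, so p-values measure the spread between these libraries. On simulated data with a dispersion of 0.177, 76 of 200 genes with a 4-fold change were recovered with 5 false calls. DESeq2 1.42.0, other scalings, filters and groupings were tried. Lists of 704 entries all matched. Some genes called here are not reported by name.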

Additional observations from a re-analysis of the deposited data

How the results depend on the processing

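Against 961 higher and 742 lower genes, grouping by sample label gave 0 and 0, the libraries on which label and name agree gave 18 and 7, and the mitochondrial share as a covariate over 10 libraries, an alternative chosen after seeing the data, gave 0 and 0. By the names of the tables the mitochondrial share went with the day in all 10 libraries. The fit with this covariate therefore cannot separate the share from the contrast. DESeq2 gave 1382 and 1226. The correlations of deviations were 0.10 and -0.16 for shared replicate numbers. Deviations of the 2 TRULI_d10 libraries from their mean mirror each other, so these values cannot decide whether the number pairs libraries. The replicate block gave 756 and 486. Leaving out each library in turn gave 18 to 1262 higher and 24 to 1226 lower. DESeq2 size factors, no filter on low counts (1132 and 927), chromosome M in the totals, every nuclear biotype, all 10 libraries in a single fit and thinning to one depth left both counts within 1.5 times. The difference from DMSO, 0 and 0, became 37 and 39 by DESeq2 and 82 and 59 without a filter, and 0 to 32 higher and 0 to 57 lower with 1 library left out, the largest without DMSO_d10 replicate 1.

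Of 80 named genes called, 0 kept the call by label, 5 in the agreeing libraries, 0 with the covariate, 64 with the block and 12 without TRULI_d5 replicate 2. By label the sign turned for Myod1 (-0.40), Col6a1 (-0.27), Egr2 (-0.13), Hbegf (-0.0168) and Mitf (-1.01); with the covariate, for Myo5a (-0.50), Crip3 (-2.00), Plk3 (-0.72) and Egr2 (-0.68). With 1 library left out, Tomt ranged from -8.09 (without TRULI_d10 replicate 1) to 1.64. The causes were not tested. Only 2 and 3 libraries, of 2856012 to 5291085 nuclear counts, limit what could be detected, and the floor of 3 counts hides lower levels.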
